A study of Mus musculus with 4 samples.

Results

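The ErbB family consists of the receptor tyrosine kinases encoded by Egfr, Erbb2, Erbb3 and Erbb4 and of the EGF-like growth factors that bind them. Transcripts of these 4 receptors and of 6 ligands (Nrg1, Areg, Tgfa, Hbegf, Btc and Egf) were examined in mouse mammary cells by RNA sequencing. The 10 genes were taken by symbol, through GENCODE M21, from the 54393 gene identifiers of the deposited count table, and all 10 were among the 18917 genes that passed the filter on low counts. There were 4 libraries. Dnp63 cKO glands, in which the N-terminally truncated form of p63 was deleted conditionally, were sampled once 10 days after tamoxifen and once 5 weeks after it. WT glands were sampled once at each of these times. Tamoxifen (1.5 mg/ml) was given at puberty, at 4 weeks, and the protocol names iK14-Cre; DNp63 f/f mice, in which keratin 14 regulatory sequence drives an inducible Cre in basal cells. The sources used here do not give whether WT mice carried the Cre or the floxed alleles, which strain was used, or whether libraries came from pooled animals. The labels also name glands of 5 weeks and of 35 weeks without tying these ages to libraries.

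ErbB receptors work in pairs. Ligands of the EGF type (encoded by Areg, Tgfa, Egf, Hbegf and Btc) bind EGFR, and neuregulins, HB-EGF and betacellulin can also engage ErbB4 or, for neuregulins, ErbB3. ErbB2 has no known ligand and acts as a partner, and ErbB3 has a weak kinase and signals mainly with ErbB2. In the pubertal mouse gland amphiregulin, made by hormone-sensing luminal cells under oestrogen, acts on stromal EGFR and drives duct growth. Neuregulin 1 from basal cells has been described as a p63 target that signals to luminal ErbB receptors, and ErbB4 with STAT5A serves lobuloalveolar development and milk production.

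The 4 ligand genes of mouse chromosome 5 that belong to this family lie close together, and 2 of the 10 genes, Areg and Btc, are among them. On GRCm38, Areg (ENSMUSG00000029378.5) spans 91139599 to 91148432 on the plus strand. Its neighbours Ereg (91074622 to 91093646) and Epgn (91027464 to 91035215) lie on the same strand, and Btc (ENSMUSG00000082361.6; 91357261 to 91402994) on the minus strand. RefSeq promoter windows (GRCm38.p6, 250 bases before to 50 after the start) were matched for 7 of the 10 genes. The windows of 3 genes are shown. Areg had the highest level per length, Btc is its neighbour, which was lower at 5 weeks in WT where Areg was higher, and Egfr was the member with both cKO libraries above both WT libraries. Windows are given 5′ to 3′ on the gene's own strand, at chr5:91139349-91139648 (plus) for Areg, chr5:91402945-91403244 (minus) for Btc and chr11:16751953-16752252 (plus) for Egfr. Capitals mark TATAAA, TGACGTCA (the palindromic cAMP response element) or GGGCGG (a GC box, CCGCCC when on the other strand).
Areg: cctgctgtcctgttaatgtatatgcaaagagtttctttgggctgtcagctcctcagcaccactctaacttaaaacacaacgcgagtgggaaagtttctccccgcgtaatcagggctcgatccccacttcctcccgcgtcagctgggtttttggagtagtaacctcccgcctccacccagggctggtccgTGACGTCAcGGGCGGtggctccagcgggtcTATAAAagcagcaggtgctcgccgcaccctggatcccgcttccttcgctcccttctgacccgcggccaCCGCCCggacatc
Btc: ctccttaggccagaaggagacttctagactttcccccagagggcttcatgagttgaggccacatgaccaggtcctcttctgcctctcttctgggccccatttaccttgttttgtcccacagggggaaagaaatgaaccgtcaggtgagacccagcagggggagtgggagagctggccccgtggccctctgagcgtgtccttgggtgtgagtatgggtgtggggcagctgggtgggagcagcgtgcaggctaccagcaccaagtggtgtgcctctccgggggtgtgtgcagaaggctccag
Egfr: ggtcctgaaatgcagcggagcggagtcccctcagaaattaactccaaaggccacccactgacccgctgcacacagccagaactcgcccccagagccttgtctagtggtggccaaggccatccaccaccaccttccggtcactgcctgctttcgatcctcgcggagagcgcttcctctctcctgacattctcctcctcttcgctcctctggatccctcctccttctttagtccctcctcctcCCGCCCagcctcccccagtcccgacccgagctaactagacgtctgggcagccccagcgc
The Areg window held TATAAA at position -31 from the start, TGACGTCA at -61, and GGGCGG at -52 and 38. The Egfr window held GGGCGG at -9 and the Btc window held none of these. TATAAA was in 13.6%, TGACGTCA in 1.79% and GGGCGG in 35.6% of 32817 RefSeq promoter windows of the same length, searched on both strands. The p53-family half-site, which p63 also recognises, was in 8.36% of all windows and was found in 1 of the 2 windows of Egf, at -83. It was in none of the windows of the other 6 genes searched; Nrg1, Erbb3 and Hbegf were not searched. These matches describe letters and are not binding data.

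Total estimated counts were 31714181 (10 days) and 34230566 (5 weeks) in cKO, against 33363255 and 79122250 in WT. The labels call the cells mammary epithelial cells, sorted by removal of CD45, CD31 and Ter119 positive cells. Luminal markers (Krt8, Krt18, Krt19, Epcam, Cldn3, Cldn4) summed to between 6506 and 8812 CPM (counts scaled to library size after TMM normalisation), and 8 fibroblast markers to between 22425 and 50278 CPM, so stromal transcripts were plentiful as well. Markers of the cells the sort removes were far lower, and their sums were higher in cKO. Myeloid markers summed to 80.9 and 88.2 CPM in cKO, against 54.8 and 32.7 CPM in WT, lymphocyte markers to 21.7 and 44.5 CPM against 12.2 and 17.3 CPM, and endothelial markers to 188 and 291 CPM against 150 and 173 CPM. Adipocyte markers summed to 975 and 1321 CPM in cKO, against 545 and 538 CPM in WT, and cKO at 10 days stood apart for Cidec (74.2 CPM, at most 0.589 CPM elsewhere) and Adipoq (23.7 CPM, at most 0.471 CPM elsewhere). The part of these cells in the results that follow was not tested. In such bulk libraries fewer cells of a type and less RNA per cell cannot be told apart. Trp63, the deleted gene, had 12.8 and 25.5 CPM in cKO at 10 days and 5 weeks, against 46.8 and 160.5 CPM in WT. Its log2 fold change was -2.26 (SE 0.267) and its adjusted p 0.107 in edgeR's quasi-likelihood test, and the counts hold all isoforms. The 8 basal markers (Krt5, Krt14, Krt17, Trp63, Itga6, Itgb4, Dsg3, Col17a1) summed to 1249 and 1218 CPM in cKO, against 4190 and 17366 CPM in WT. All 8 had both cKO libraries below both WT libraries, against 23.3% of all genes. The 6 myoepithelial and smooth muscle markers (Acta2, Myh11, Tagln, Cnn1, Mylk, Oxtr) summed to 1617 and 1889 CPM in cKO, against 2851 and 1676 CPM in WT, and overlapped. Of these 6, 1 (Tagln) had both cKO libraries below both WT libraries, against 23.3% of all genes, and the median log2 fold change was -0.18.

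Levels of the 10 genes were set against each other per kb of merged exons. Areg stood highest at a mean of 152.7 CPM per kb over the 4 libraries, with a range of 88.7 to 185.3 that did not overlap the next. Hbegf (mean 34.2), Erbb3 (29.8), Egfr (22.8) and Erbb2 (19.6 CPM per kb) followed, and each overlapped its neighbour in the order. The place of Hbegf differed by genotype. It ranked 5 and 4 in cKO (18.6 and 16.5 CPM per kb), below Erbb3 and Egfr, against 2 in both WT libraries (35.1 and 66.4 CPM per kb). Tgfa had a mean of 2.86 CPM per kb, below Erbb2 and above Btc (1.03) in every library. Btc, Nrg1 (0.477) and Erbb4 (0.403) overlapped in that order, and Egf was lowest at 0.115 CPM per kb. Thus 3 receptor genes and 2 ligand genes carried most of the family's transcripts, and Nrg1, Erbb4 and Egf were scarce in these cells.

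**Figure D1:**
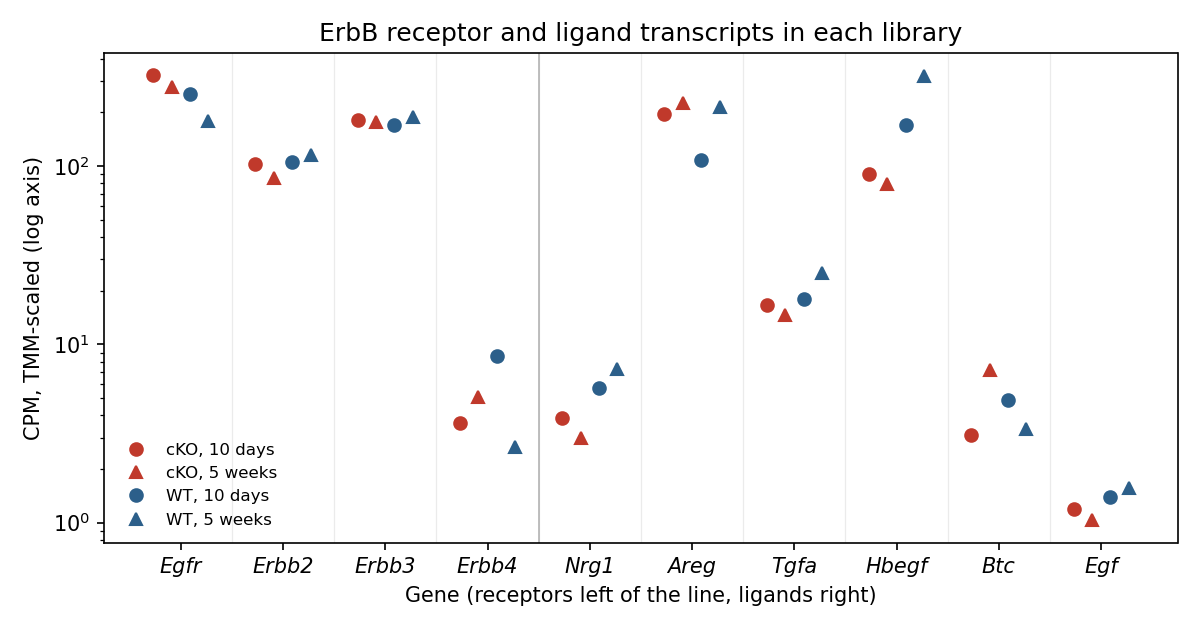
CPM (TMM-scaled, log axis) of each ErbB receptor and ligand gene in each library, with cKO in red and WT in blue, circles for 10 days and triangles for 5 weeks. Hbegf lies at 90.1 and 79.8 CPM in cKO against 169.7 and 321.0 CPM in WT, while Erbb3 lies between 169.7 and 188.2 CPM in all 4 libraries.

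The genotype comparison asked whether the family differed between cKO and WT with time held constant. In edgeR's quasi-likelihood test 0 of the 10 reached an adjusted p under 0.05, where 0.0529% of all genes tested passed as lower, 0.00529% as higher and 0.0581% in either direction. At an unadjusted p under 0.05, 2 of the 10 were lower (Hbegf and Nrg1) and 0 higher, against 5.8% of all genes in each direction and 11.6% in either. Both cKO libraries lay below both WT libraries for 5 genes (Erbb2, Nrg1, Tgfa, Hbegf and Egf), against 23.3% of all genes, and above them for 1 gene (Egfr), against 22.6%. Taken by time point, 5 of the 10 were lower in cKO at both times (30.4% of all genes), 2 were higher at both, Egfr and Areg (29.7%), and 3 had opposite signs, Erbb3, Erbb4 and Btc (39.7%). At 10 days, 1 of the 10 was at least 2-fold lower in cKO, Erbb4 (7.45% of all genes), and 0 at least 2-fold higher (7.89%). At 5 weeks, Hbegf and Nrg1 were at least 2-fold lower (6.54%) and Btc at least 2-fold higher (7.78%). The median log2 fold change over the 10 genes was -0.20, against -0.01 over all genes tested. With 2 libraries per genotype and nothing in the labels on separate animals, p-values reflect the spread among these libraries alone, which may be technical and includes any genotype difference between the times.

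Among the receptors, Egfr, which encodes the receptor of amphiregulin and TGF-alpha, had 322.8 and 278.5 CPM in cKO at 10 days and 5 weeks, against 253.9 and 179.7 CPM in WT. The groups did not overlap, and cKO was the higher at each time. Its log2 fold change was 0.49 (SE 0.231), with an adjusted p of 0.490 in edgeR. Fibroblast markers, listed because stromal cells also express Egfr, summed to 25058 and 50278 CPM in cKO, against 35363 and 22425 CPM in WT, and overlapped between genotypes. Most of that sum came from 3 collagen genes. Of the 8 markers, 4 (Dcn, Pdgfra, Pdgfrb and Dpt) had both cKO libraries above both WT libraries, against 22.6% of all genes. Over both times the list's median log2 fold change was 0.45, near that of Egfr. At 10 days Egfr stood at a log2 ratio of 0.35, against a list median of -0.04. At 5 weeks Egfr stood at 0.63, against a list median of 0.95. The part of the fibroblast markers in the Egfr values was not tested.

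Erbb2, the ligandless partner, had 102.4 and 85.1 CPM in cKO, against 105.2 and 115.3 CPM in WT. The gap at 10 days was within counting error (log2 ratio -0.04, 95% exact interval -0.11 to 0.03), and the log2 fold change over both times was -0.24 (SE 0.207, adjusted p = 0.715 in edgeR). Erbb3, the neuregulin receptor with a weak kinase, had 182.1 and 177.3 CPM in cKO, against 169.7 and 188.2 CPM in WT. The libraries overlapped, with means of 179.7 ± 3.40 CPM in cKO and 178.9 ± 13.0 CPM in WT (SD, n = 2 each). Its log2 fold change was 0.01 (SE 0.211).

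Erbb4, the neuregulin receptor linked to STAT5A and milk production, was far scarcer. It had 115 and 171 counts in cKO, against 296 and 205 counts in WT, which gave 3.62 and 5.04 CPM in cKO, against 8.59 and 2.67 CPM in WT. WT at 10 days was the highest library and WT at 5 weeks the lowest, so the genotypes overlapped. The log2 ratio of cKO to WT was -1.25 at 10 days (95% exact interval -1.57 to -0.93) and 0.92 at 5 weeks (0.62 to 1.22). These intervals cover counting error in 1 library against 1 and no other spread. The log2 fold change over both times was -0.16 (SE 0.630, adjusted p = 0.948 in edgeR).

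Of the ligands, Hbegf differed most. It encodes heparin-binding EGF-like growth factor, a membrane-anchored ligand of EGFR and ErbB4, and lies on chromosome 18 (36504927 to 36515805, minus strand). It had 90.1 and 79.8 CPM in cKO, against 169.7 and 321.0 CPM in WT. The cKO libraries were close to each other and both were below WT, and WT was higher at 5 weeks. At 10 days the log2 ratio of cKO to WT was -0.91, and at 5 weeks -2.01, which is 1.88-fold lower and 4.02-fold lower in cKO. The log2 fold change over both times was -1.46 (SE 0.326), or 2.75-fold lower in cKO, with an unadjusted p of 0.00621 and an adjusted p of 0.266 in edgeR's quasi-likelihood test. DESeq2 called it (log2 fold change -1.46, adjusted p = 0.00193), as the only one of the 10 genes, where DESeq2 called 1.46% of all genes lower, 1.25% higher and 2.71% in either direction. Over the alternatives the adjusted p of Hbegf ran from 3.78e-06 to 0.843 and its log2 fold change from -1.92 to -0.999. Without WT at 5 weeks, in a fit that also lacked the time term, the value was -0.999 (adjusted p = 0.195). The basal marker sums given above were likewise lower in cKO, while the myoepithelial and smooth muscle sums overlapped. Hbegf per marker count was higher in both cKO libraries for 4 of the 8 basal markers, lower for 1 (Itga6) and overlapping for 3. Such a ratio is higher wherever the marker was lower by more than Hbegf. The part of the basal markers in the Hbegf values was not tested.

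Nrg1, the neuregulin gene described as a basal p63 target (chromosome 8, 31814551 to 32884029, minus strand), had 122 and 101 counts in cKO, against 197 and 556 counts in WT. This gave 3.84 and 2.98 CPM in cKO, against 5.72 and 7.23 CPM in WT. Both cKO libraries were below both WT libraries, and the gap was wider at 5 weeks (log2 ratio -1.28, 95% exact interval -1.60 to -0.97) than at 10 days (-0.57, -0.91 to -0.24). The log2 fold change over both times was -0.93 (SE 0.372), or 1.90-fold lower in cKO. The unadjusted p was 0.0498 and the adjusted p 0.430 in edgeR, so Nrg1 was not called. Its log2 fold change stayed between -1.13 and -0.75 over 12 alternatives. Set against Trp63, which was 4.80-fold lower, the fitted difference of Nrg1 was the smaller. Set against each of the 8 basal markers in turn, a choice made after the values were seen and with no test, the Nrg1 count per marker count was higher in both cKO libraries than in both WT libraries for 6 markers and overlapped for Trp63 and the integrin gene Itga6. Per Krt5 count it was 5.56-fold higher in cKO at 10 days and 13.7-fold higher at 5 weeks. Krt5 itself was 8.27-fold and 33.2-fold lower in cKO at these times. Any gene lower by less than the marker gives a higher ratio, and the share over all genes was not computed. Per Itga6 count Nrg1 stood at 0.0185 and 0.0133 in cKO, against 0.0182 and 0.0144 in WT, so the ratio depended on the marker chosen. The counts are summed over the gene's isoforms, of which the annotation lists 18.

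**Figure D2:**
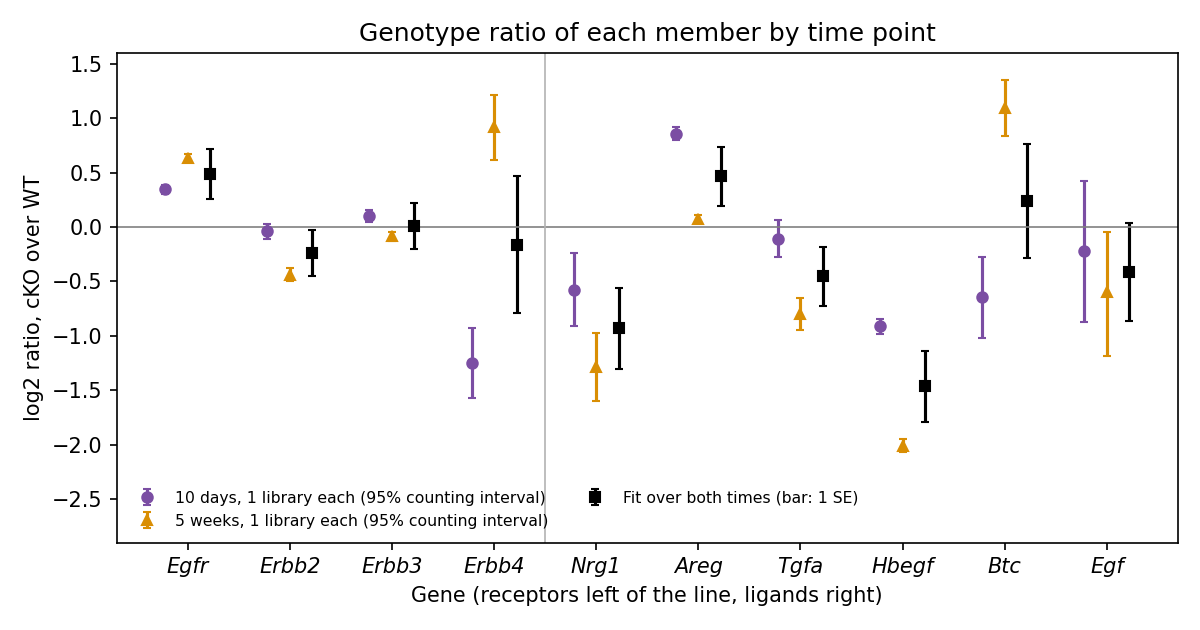
Log2 ratio of cKO over WT for each gene at 10 days (circles) and 5 weeks (triangles), each from 1 library against 1 with its 95% exact counting interval, and the fitted log2 fold change over both times (squares, bar 1 SE). Hbegf and Nrg1 lie below 0 at each time, Egfr lies above 0 at each time, and Erbb4 and Btc change side between the times.

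Areg, which encodes amphiregulin, had 195.5 and 225.1 CPM in cKO, against 107.8 and 213.9 CPM in WT. WT at 10 days was the low library, and WT at 5 weeks lay between the cKO libraries, so the genotypes overlapped. At 10 days the log2 ratio of cKO to WT was 0.86, and at 5 weeks 0.073; the log2 fold change over both times was 0.47 (SE 0.269, adjusted p = 0.572 in edgeR). Without WT at 10 days, in a fit lacking the time term, it was -0.02. The 7 hormone-sensing luminal markers, from the cells that make amphiregulin, summed to 1921 and 1899 CPM in cKO, against 848.0 and 1509 CPM in WT. Of these, 5 had both cKO libraries above both WT libraries, against 22.6% of all genes. Esr1 and Cited1 overlapped and were highest in WT at 5 weeks (165.2 and 167.0 CPM). The lowest sum was also in WT at 10 days, and its part in the Areg values was not tested.

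Tgfa, a further EGFR ligand gene, had 16.6 and 14.5 CPM in cKO, against 17.9 and 25.2 CPM in WT. The groups did not overlap, but the gap at 10 days was within counting error (log2 ratio -0.11, 95% exact interval -0.28 to 0.06). The log2 fold change was -0.45 (SE 0.275, adjusted p = 0.587 in edgeR). Btc, the betacellulin gene, had 3.12 and 7.19 CPM in cKO, against 4.88 and 3.37 CPM in WT. Its highest and its lowest library were both cKO, and its log2 ratio was -0.65 at 10 days (95% exact interval -1.02 to -0.28) and 1.09 at 5 weeks (0.83 to 1.35). Egf, the founding ligand, was scarce at 38 and 35 counts in cKO, against 48 and 120 counts in WT, or 1.20 and 1.03 CPM against 1.39 and 1.56 CPM. The difference at 10 days was not detectable at this depth (95% exact interval of the log2 ratio -0.87 to 0.42). At 5 weeks the log2 ratio was -0.60 (-1.19 to -0.045).

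The make-up of the ligand transcripts differed between the genotypes at both times. Of the summed level per kb of the 6 ligands, Areg made up 87.8% and 89.9% in cKO, against 69.1% and 71.0% in WT. Hbegf made up 10.2% and 8.01% in cKO, against 27.4% and 26.8% in WT. The other 4 ligands made up the small remainder. The count of Areg per count of Hbegf, which needs neither scaling nor length, was 2.17 and 2.82 in cKO, against 0.635 and 0.666 in WT, and so 3.42-fold and 4.23-fold higher in cKO at 10 days and 5 weeks. The genotypes did not overlap and lay further apart than the libraries within each. An exact two-sided permutation test gave p = 0.333, the smallest that 2 libraries against 2 can give (0.389 adjusted by Benjamini-Hochberg over the 14 ratios computed, which were chosen after the values were seen). Most of these 14 ratios did not overlap between genotypes, the exceptions being Hbegf and Nrg1 per Trp63 count. Among single genes, 23.3% had both cKO libraries below both WT libraries and 22.6% above. The share over other pairs of genes was not computed. The summed ligand level itself was 183.2 and 206.0 CPM per kb in cKO, against 128.3 and 247.9 in WT, and overlapped.

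Among receptors the mix differed less. Egfr made up 36.2% and 34.7% of the summed receptor level per kb in cKO, against 31.3% and 22.8% in WT. Erbb2 made up 24.96% and 23.1% in cKO, against 28.2% and 31.9% in WT. The count of Egfr per count of Erbb2 was 3.15 and 3.27 in cKO, against 2.41 and 1.56 in WT. Erbb3 held 38.5% and 41.6% in cKO, against 39.4% and 45.0% in WT, and overlapped. The receptor sum overlapped too, at 78.7 and 70.8 CPM per kb in cKO, against 71.5 and 69.5 in WT.

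**Figure D3:**
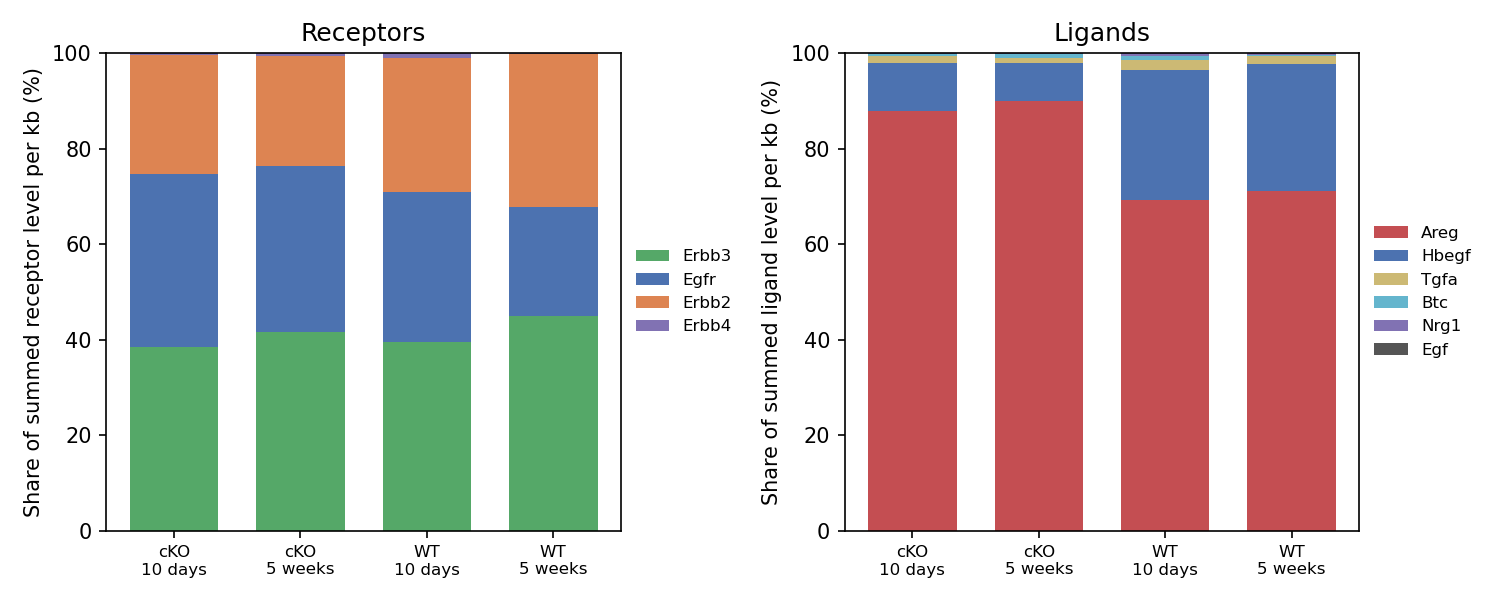
Share (%) of each gene in the summed level per kb of merged exons, for receptors (left) and ligands (right), 1 bar per library with cKO left of WT. The Areg share is 87.8% and 89.9% in cKO against 69.1% and 71.0% in WT, and the Hbegf share is 10.2% and 8.01% against 27.4% and 26.8%.

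Time was the other comparison of the design. With tamoxifen given at 4 weeks, mice sampled later after it were also older, so time after tamoxifen and age cannot be told apart. For 5 weeks over 10 days, 0 of the 10 reached an adjusted p under 0.05 in edgeR, where 0.0634% of all genes passed, and 0 had an unadjusted p under 0.05, where 3.09% of all genes did as higher and 2.27% as lower at 5 weeks. DESeq2 likewise called 0 of them, against 1.01% of all genes. Areg came nearest, at a log2 fold change of 0.60 (SE 0.270, unadjusted p = 0.0726, adjusted p = 0.959 in edgeR). Its log2 ratio of 5 weeks to 10 days was 0.20 in cKO and 0.99 in WT. Hbegf had a ratio of -0.18 in cKO and 0.92 in WT, and Erbb4 one of 0.47 in cKO and -1.67 in WT. Btc had 1.19 in cKO and -0.53 in WT. In cKO, Btc was thus the 1 member at least 2-fold higher at 5 weeks (6.02% of all genes), and 0 were at least 2-fold lower (4.34%). In WT, Erbb4 was the 1 member at least 2-fold lower at 5 weeks (6.43% of all genes), and 0 were at least 2-fold higher (7%). The difference of these ratios between genotypes could not be tested, because 4 libraries leave no residual for it.

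The rest of the pathway was read from lists fixed with earlier results of these data known. Of the 5 further ligand genes, Nrg3 had 0 counts in all libraries and the other 4 were tested, with 0 called and 0 at an unadjusted p under 0.05 for genotype. Epgn (epigen) had 2.58 and 4.77 CPM in cKO, against 1.71 and 3.59 CPM in WT, and Nrg2 had 3.24 and 3.65 CPM against 3.63 and 4.88 CPM. Of 6 ligand-shedding genes 0 were called. Rhbdf2, a pseudoprotease that helps the sheddase ADAM17 mature, had 90.6 and 67.3 CPM in cKO, against 127.0 and 94.9 CPM in WT (log2 fold change -0.49, adjusted p = 0.414 in edgeR). Adam9 had 126.6 and 125.2 CPM in cKO, against 87.9 and 91.7 CPM in WT (0.49, adjusted p = 0.422 in edgeR).

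Of 10 genes that restrain ErbB signalling 0 were called, 1 was higher at an unadjusted p under 0.05, and the median log2 fold change was 0.06. Cblb, a ubiquitin ligase gene, had 66.3 and 56.1 CPM in cKO, against 41.3 and 36.2 CPM in WT (0.66, adjusted p = 0.337 in edgeR), and Socs4 had 38.2 and 49.9 CPM against 35.2 and 37.5 CPM. Of 15 adaptor and relay genes 0 were called, with a median of -0.01. Grb7, an adaptor that binds ErbB2, had 26.1 and 25.4 CPM in cKO, against 41.8 and 36.7 CPM in WT (-0.61, adjusted p = 0.388 in edgeR). Gab2, a docking protein gene, had 52.1 and 37.9 CPM in cKO, against 38.3 and 28.1 CPM in WT.

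The 16 genes of ERK pathway feedback and output held 0 calls over all genes, with 3 lower and 0 higher at an unadjusted p under 0.05 and a median log2 fold change of 0.03. Phlda1, an ERK-induced gene, had 141.8 and 200.3 CPM in cKO, against 255.6 and 315.0 CPM in WT (-0.75, adjusted p = 0.337 in edgeR). Dusp5, a nuclear ERK phosphatase gene, had 69.7 and 77.1 CPM in cKO, against 123.7 and 106.9 CPM in WT (-0.65, adjusted p = 0.353 in edgeR). The cyclin gene Ccnd1, named after its values were seen, was the third, at 91.5 and 138.6 CPM in cKO, against 239.4 and 180.0 CPM in WT. In all, 5 of the 16 had both cKO libraries below both WT libraries and 3 had them above, against 23.3% and 22.6% of all genes.

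Of the 9 genes of neuregulin and STAT5 output in luminal cells, 8 were tested and 0 called, with a median log2 fold change of 0.08. Lalba, the milk alpha-lactalbumin gene, had 27.3 and 45.7 CPM in cKO, against 3.60 and 23.9 CPM in WT (1.90, SE 0.575, adjusted p = 0.388 in edgeR). Csn3, the kappa-casein gene, had 351.5 and 390.8 CPM in cKO, against 132.1 and 359.7 CPM in WT, with WT at 10 days apart from the other libraries. Among 10 genes tied to p63 in basal cells, Trp63 itself included, 1 was called lower, the keratin gene Krt15 (13.2 and 51.4 CPM in cKO, against 177.6 and 1020 CPM in WT; -4.03, adjusted p = 0.0351 in edgeR). Of these 10, 9 had both cKO libraries below both WT libraries, against 23.3% of all genes, and the median was -1.95. The 10 ErbB genes had 5 and -0.20. This p63-linked list shares Trp63, Krt5, Krt14, Itga6 and Itgb4 with the basal markers given above, so the 2 lists are not separate results. Without Trp63 the list had 8 of 9 below and a median of -1.78.

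**Figure D4:**
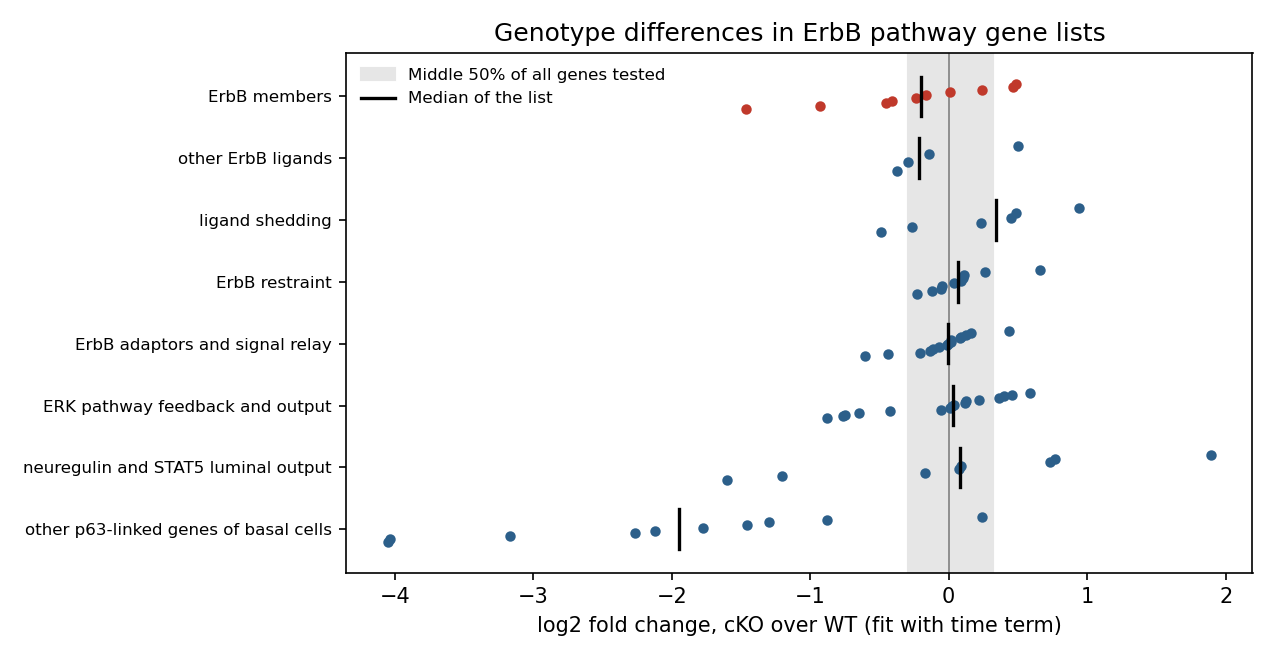
Fitted log2 fold change, cKO over WT, of each tested gene (points) in each list, with the list's median (black bar) and the middle 50% of all genes tested (grey). The 10 ErbB genes (red) have a median of -0.20 and reach from -1.46 (Hbegf) to 0.49 (Egfr), while the 10 p63-linked genes, Trp63 included, have a median of -1.95.

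Genes whose profile over the 4 libraries was most like that of a member were found among 11235 named genes with a mean of at least 5 CPM, by the root mean square difference of log2 CPM centred on each gene's mean. The 5 nearest Nrg1 were Polr1e (0.04), Taf9 (0.04), Bysl (0.05), Tmem79 (0.05) and Odc1 (0.06). The 5 nearest Areg were Sfxn2 (0.04), Gngt2 (0.05), Vamp5 (0.06), Nbl1 (0.06) and Tgm2 (0.06). Odc1, the ornithine decarboxylase gene, had 262.2 and 182.9 CPM in cKO, against 379.7 and 472.6 CPM in WT. Tgm2, a transglutaminase gene, had 898.1 and 955.7 CPM in cKO, against 471.5 and 1016 CPM in WT.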

How the data were processed

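RNA was measured by sequencing in 4 libraries, and the authors deposited 1 table of estimated counts for 54393 genes, with 0 columns of other samples. The submitters' processing notes name Salmon and GRCm38 without saying how each was used, and no source here gives the authors' annotation. The deposited counts were whole numbers already. Strand use in counting is not given, so overlapping genes are uncertain. All 54393 identifiers matched GENCODE M21, which supplied symbols, positions and exon lengths (for the 105 repeated symbols, the identifier with most counts). Genotype came from the genotype label and time from the time label. Libraries of a genotype differed by more than sampling noise, with a chi-square of 64.7 per degree of freedom in cKO and 124.0 in WT.

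Genes passing filterByExpr (minimum count 10) were scaled by TMM. The robust quasi-likelihood test of edgeR 4.0.16, run in R 4.3.3, had time and genotype as terms, which leaves 1 residual degree of freedom and blocks by time point. Benjamini-Hochberg adjustment ran over 18917 genes. SE is the absolute log2 fold change over the square root of F. Single-gene log2 ratios of cKO to WT within a time point use CPM and exact (Clopper-Pearson) 95% intervals, for counting error only. The Hbegf folds by time point, list medians by time point and counts of genes by such ratios use log2 CPM with a prior count of 2. Ratios of 5 weeks to 10 days use that prior count too. Alternatives were other scalings and filters, DESeq2 1.42.0, limma 3.58.1 (voom), no time term, and each library left out. The members and lists were chosen with earlier results of these data known. Genes named beside the members were Trp63, and from each list those called or else the 2 with the smallest p for genotype, plus the 5 genes most like Nrg1 and Areg.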

Additional observations from a re-analysis of the deposited data

Results flagged for a closer look

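Erbb4, Btc and Erbb3 had genotype ratios of opposite sign at the 2 time points, each beyond counting error. For Erbb4 the log2 ratio of cKO to WT was 0.92 at 5 weeks and -1.25 at 10 days. For Btc it was 1.09 at 5 weeks and -0.65 at 10 days. For Erbb3 it was -0.086 at 5 weeks and 0.10 at 10 days, a far smaller swing. Each ratio rests on 1 library per genotype, and the difference between time points was not tested. Opposite signs at the 2 times were found for 39.7% of all genes tested, beside 3 of these 10.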

How the results depend on the processing

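The genotype comparison gave 11 calls over all genes (10 lower and 1 higher in cKO; 2196 at an unadjusted p under 0.05) and the time comparison 12. Genotype calls numbered 5 with DESeq2 size factors and 3 with upper-quartile factors. Without a filter there were 1235 genotype and 638 time calls, with at least 1 CPM in 2 libraries 32 and 23, with DESeq2 513 and 192, and with limma-voom 29 and 39. Without the time block the genotype fit gave 0 calls in edgeR (2182 at an unadjusted p under 0.05, 513 calls by DESeq2 with the block), and the time fit without a genotype term gave 1. Leaving out 1 library gave 0 to 60 genotype calls (60 without WT at 10 days, 1 without WT at 5 weeks, 0 without either cKO library) and 0 to 18 time calls (0 without either library of 5 weeks); these fits held 1 term only. The cause of these shifts was not tested.

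Of 120 values for the members' genotype fold changes, 112 kept direction and side of the threshold. Hbegf was called with DESeq2 and without a filter. Erbb3 turned to -0.0050 without a filter. With 1 library left out, the genotype log2 fold changes that turned sign ranged from -0.066 to 0.082 for Erbb3, from -0.99 to 0.70 for Erbb4, from -0.025 to 0.96 for Areg and from -0.43 to 0.80 for Btc. Of 120 time values 107 kept direction. Nrg1, near 0, turned to 0.0083 without a filter, 0.065 with limma-voom and 0.10 without the block, where Egf turned to 0.0083. With 1 library left out, time values ranged from -0.29 to 0.13 for Erbb2, -1.22 to 0.085 for Erbb4, -0.68 to 0.57 for Nrg1, -0.25 to 0.53 for Tgfa, -0.70 to 1.28 for Hbegf, -0.27 to 0.85 for Btc and -0.33 to 0.25 for Egf. The order of levels per kb kept 6 of 10 ranks in cKO at 10 days and 5 in cKO at 5 weeks, against 8 in each WT library. Of the 5 genes most like Areg, 3 stayed when ranked by the largest single difference. With the longest transcript as length, chosen after the data were seen, the Areg share differed by 24.5 percentage points in place of 18.8, and the Hbegf share by -23.7 in place of -18.0. Low counts of Nrg1, Erbb4, Btc and Egf limit their precision.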

Other observations

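Ereg, the epiregulin gene that lies beside Areg, and the casein gene Csn1s1 were picked after their values were seen, because cKO was below WT at 10 days and above WT at 5 weeks for them, as for Erbb4 and Btc. Ereg had 6.10 CPM at 5 weeks and 2.05 CPM at 10 days in cKO, against 2.69 and 8.10 CPM in WT. Csn1s1 had 9.19 CPM at 5 weeks and 0.818 CPM at 10 days in cKO, against 2.30 and 21.8 CPM in WT. Btc and Ereg were higher at 5 weeks than at 10 days in cKO and lower in WT, while Areg, on the same stretch of chromosome 5, was higher at 5 weeks in each genotype. These are values of single libraries with no test.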
